A study of Rattus norvegicus with 6 samples.

Results

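The calcium-activated chloride channel genes examined here were Clca1, Clca2 and Clca4 of the CLCA family and Ano1, Ano6 and Ano10 of the anoctamin family. Of these 6 genes, 5 were among the 15284 genes that could be named on the array. They were chosen by name, and Clca2 was chosen for its loss after treatment, so its values in that comparison are a description and carry no test. Liver RNA came from male Sprague-Dawley rats. BBMP, short for 2,2-bis(bromomethyl)-1,3-propanediol and used as a flame retardant, was given to 3 animals at 1000 mg/kg/day, and corn oil, its vehicle, to the other 3. Each liver was hybridised to 1 Agilent 1-colour array. The rats were bought at 5 weeks of age. The labels give the exposure as 28 days in one place and as 9 weeks in another, and do not settle which is meant. One slide carried the 3 BBMP arrays and a second, scanned separately, the 3 corn oil arrays, so that treatment, slide and scan cannot be told apart in what follows. A liver is a mixture of cell types, and fewer cells of a type and less RNA per cell cannot be told apart in such samples.

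CLCA proteins were named as calcium-activated chloride channels, but they are secreted or membrane-anchored, self-cleaving metalloproteases that modulate chloride currents and are not thought to form the pore themselves. The pore of the classical calcium-activated chloride current is formed by Ano1 (TMEM16A), which human CLCA1 holds at the cell surface. Calcium-activated chloride secretion is best known from epithelia, in liver from the bile duct epithelium, where it drives fluid into bile. Human CLCA2, a membrane-anchored member, is best known from stratified and glandular epithelia and as a gene induced by p53.

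The 5 genes on the array had 7 probes, and no probe could be matched to Ano6, a calcium-activated lipid scramblase, which is not analysed here. For a gene to be tested, all 3 arrays of at least 1 group had to flag a probe of it as well above background, in the scanner software's terms. Clca2, Clca4, Ano1 and Ano10 met this, and Clca1 did not. Below, a probe is said to be read on an array where it carried that flag. Clca2 met it through the corn oil group alone, so a difference was built into its passing.

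Clca2 lies in a cluster of CLCA genes on chromosome 2, next to Clca1 and with Clca4 beyond it. The RefSeq gene table also lists Clca5 as an older name of the gene now called Clca2, and Clca2 as an older name of the gene now called Clca5, so the symbol here is the current one, reached through the accession on the array (NM_001107450). The 250 bases before the annotated transcript start of Clca2 and of Clca4 are shown because these 2 genes of the cluster were both read in corn oil livers and differed in whether they were read in BBMP livers. They are from RefSeq (build GRCr8), both genes being on the minus strand, Clca2 at chr2:236682459-236682708 and Clca4 at chr2:236565097-236565346. Capitals mark matches, on either strand, to the motifs searched.
Clca2: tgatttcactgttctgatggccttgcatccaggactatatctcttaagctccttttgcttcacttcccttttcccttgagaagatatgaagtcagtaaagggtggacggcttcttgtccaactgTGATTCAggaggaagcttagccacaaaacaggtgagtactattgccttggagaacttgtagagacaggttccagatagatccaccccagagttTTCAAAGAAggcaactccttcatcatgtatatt
Clca4: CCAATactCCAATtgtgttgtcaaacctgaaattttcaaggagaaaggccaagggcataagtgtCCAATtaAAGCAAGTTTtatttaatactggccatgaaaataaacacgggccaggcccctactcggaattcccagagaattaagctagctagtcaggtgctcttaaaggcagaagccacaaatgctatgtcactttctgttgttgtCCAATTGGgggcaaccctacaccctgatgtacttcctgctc
The motif of STAT factors was searched as TTCNNNGAA and that of AP-1 as TGANTCA, where N is any base. The AP-1 pattern is thus a loose one, and the stretch it matched in Clca2 has T at its centre. The motif of C/EBP factors was searched as TTNNGNAA. The core promoter box bound by TBP was searched as TATAAA. The box bound by the factor NF-Y was searched as CCAAT, and the p53 half-site by its usual pattern of purines and pyrimidines around a central core. The window of Clca2 held 1 STAT match, which begins 33 bases before the transcript start, and 1 AP-1 match, which begins 126 bases before it. Among 33469 windows of the same length, 7.67% held a STAT match and 6.34% an AP-1 match. The window of Clca4 held 5 NF-Y box matches, 2 of them overlapping each other on opposite strands, and 1 p53 half-site, against 34% and 6.64% of all windows with at least 1. Neither window held the TBP box, found in 12.9% of all windows, or the C/EBP motif, found in 37.2%. A match describes letters in the window and does not show that a factor binds there.

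Clca2 was read in every corn oil liver and was at or near the level of blank spots in the BBMP livers. Its processed signal was 3.73, 3.47 and 5.17 intensity units in BBMP livers 1, 2 and 3. In corn oil livers 1, 2 and 3 it was 85.7, 135 and 152 intensity units. The groups did not overlap. The probe was well above background in 0 of 3 BBMP livers and in 3 of 3 corn oil livers. On the log2 scale, as the signal over each array's 75th percentile, the measured means were -7.02 ± 0.20 in BBMP livers and -1.98 ± 0.36 in corn oil livers (SD, n = 3 each), a measured difference of -5.04. The BBMP mean is only a bound, because the signals lie under the lowest value that was well above background, -5.25, -5.23 and -5.37 on those arrays. With each BBMP array set at that lowest value, Clca2 was at least 9.91-fold lower in BBMP livers.

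**Figure D1:**
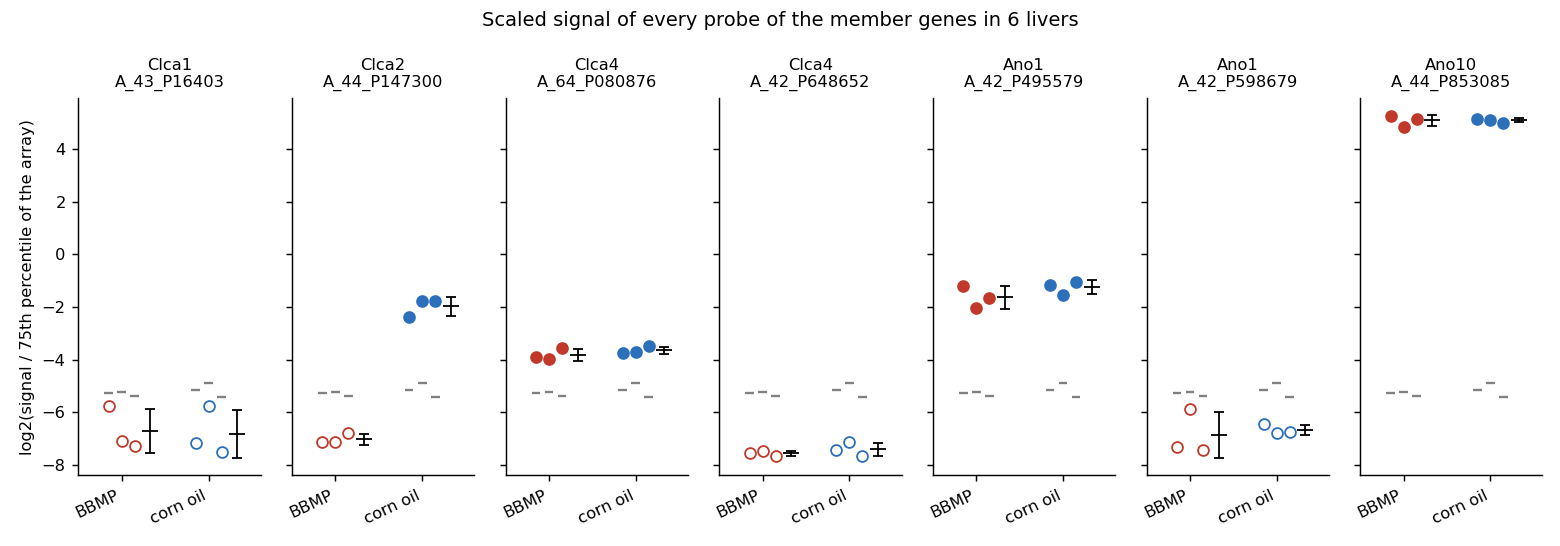
Scaled signal of the 7 probes of the member genes (y axis, log2 of the signal over the array's 75th percentile) in BBMP livers (red) and corn oil livers (blue). Filled points belong to groups in which all 3 arrays read the probe as well above background, grey ticks are each array's lowest signal well above background, and black marks are the group mean ± SD. The Clca2 probe lies between -7.14 and -6.79 in BBMP livers and between -2.39 and -1.75 in corn oil livers.

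The scanner readings at the Clca2 spot show the same contrast before any scaling. The median pixel brightness of the spot was 32.5, 29.0 and 34.0 in BBMP livers 1, 2 and 3, and 109.0, 168.0 and 169.5 in corn oil livers 1, 2 and 3. The 308 negative control spots, which carry sequences without a target in the sample, had median brightness of 29.0, 28.0 and 29.0 on the BBMP arrays and 28.0, 30.0 and 27.0 on the corn oil arrays. The Clca2 spot therefore read close to a blank spot on BBMP arrays and well over one on corn oil arrays. After background subtraction, 82.8%, 74.4% and 96.1% of negative control spots read at or below the Clca2 spot on BBMP arrays 1, 2 and 3, and 100% did on each corn oil array. The scanner software's weaker flag, for a signal significantly over background, was set for Clca2 in 1 of 3 BBMP livers, BBMP 3, and in 3 of 3 corn oil livers. No Clca2 spot carried an outlier flag.

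**Figure D2:**
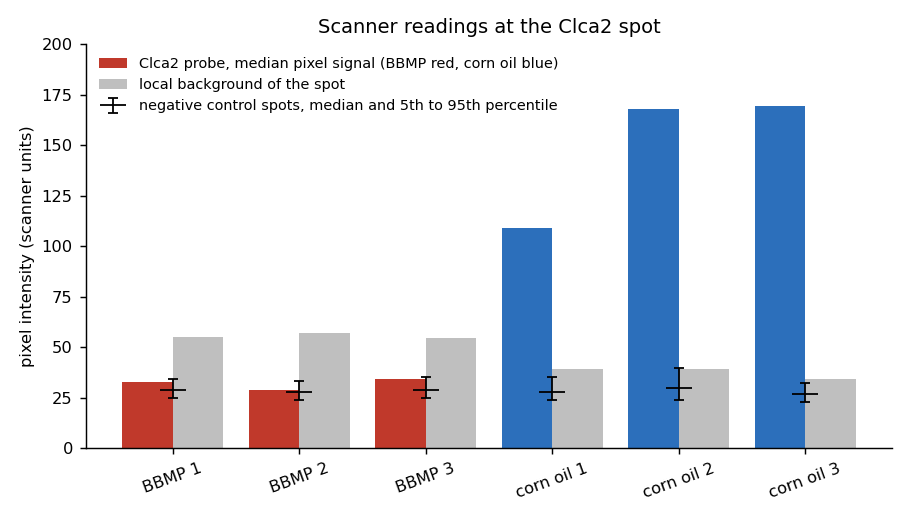
Scanner readings at the Clca2 spot by array (y axis, pixel intensity in scanner units). Coloured bars are the spot's median brightness (BBMP red, corn oil blue), grey bars its local background, and black marks the median of 308 negative control spots with their 5th to 95th percentile. The BBMP bars stand at 29.0 to 34.0, at the height of the negative controls, and the corn oil bars at 109.0 to 169.5.

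The slides differed in the brightness around the spots. The local background of the Clca2 spot was 55.0, 57.0 and 54.5 on BBMP arrays and 39.0, 39.0 and 34.0 on corn oil arrays, and the array medians of the local background were 54.0 to 56.0 on BBMP arrays and 37.0 to 39.0 on corn oil arrays. The part of this in the Clca2 difference was not tested. Of 47 probes within 3 rows and 3 columns of the Clca2 spot, 21 were well above background on all 6 arrays, and their differences ranged from -0.49 to 0.70 on the log2 scale with a median of 0.09. None of the 47 was, like Clca2, well above background on 3 corn oil arrays and 0 BBMP arrays. Only 37 of all 61573 probes were, so this count cannot tell whether the place on the slide mattered. The 21 were picked as well above background on all 6 arrays, which leaves out any lost spot. An effect of place was not tested.

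Over all 28112 features tested, 30 (0.107%) were well above background on 3 corn oil and 0 BBMP arrays, and 64 (0.228%) the other way round. Clca2 had the largest bound of the 30. The next, an unnamed probe, was at least 5.64-fold lower in BBMP livers, and the median bound of the 30 was 1.62-fold. Among the 64 features seen in BBMP livers alone the largest bound was 2.46-fold and the median 1.39-fold. Clca2 was chosen for this loss, so its place among the 30 is a description.

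**Figure D3:**
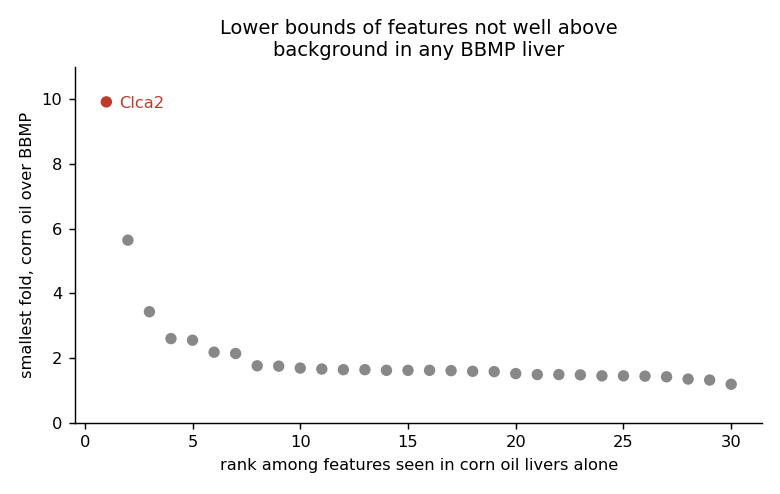
Lower bound of the fold difference, corn oil over BBMP (y axis), for the 30 features well above background on 3 corn oil and 0 BBMP arrays, ranked from the largest (x axis). Clca2 (red) is at 9.91 and the next feature at 5.64.

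The size of the bound depends on how low signals are treated. With normexp background correction, which models the local background and adds 50 intensity units to every spot, the difference of Clca2 was -1.56 on the log2 scale and its bound 2.83-fold, still lower in BBMP livers. Without 1 array the bound ranged from 9.18-fold (without corn oil 2) to 11.5-fold (without corn oil 1).

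Of the other genes in the CLCA cluster, Clca4 alone could be read. Of the 9 probes for Clca1, Clca4, Clca4l and Clca5, 8 were above background, by that flag, on no array, a share of 88.9% against 31.3% of all 61573 probes. Clca1, a secreted protein of mucus-producing epithelium, had 9.73, 3.61 and 3.66 intensity units in BBMP livers and 3.15, 8.34 and 2.90 in corn oil livers. The higher and lower readings of Clca1 were mixed between the groups, and none was well above background, so no level and no fold can be given. All 4 probes of Clca5 and both probes of Clca4l were likewise read on no array, with signals from 2.65 to 7.25 intensity units. CLCA genes are close paralogs, and a probe may also bind the transcript of a relative.

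Clca4, a membrane-bound CLCA protein best known from intestinal epithelium, had 1 probe well above background on all 6 arrays. It read 35.1, 31.0 and 48.0 intensity units in BBMP livers and 33.6, 35.0 and 46.5 in corn oil livers. The groups overlapped, and the highest reading of each group was in its animal 3. The scaled log2 means were -3.82 ± 0.21 in BBMP livers and -3.65 ± 0.13 in corn oil livers (SD, n = 3 each), a difference of -0.17 ± 0.14 (SE; limma adjusted p = 0.691 over all features). The 95% interval of the fold, BBMP over corn oil, was 0.702 to 1.13. The estimate moved between -0.29 without BBMP 3 and -0.09 without BBMP 2 or without corn oil 3. The other Clca4 probe was read on no array, at 2.57 to 3.24 intensity units, so the level of Clca4 rests on 1 of its 2 probes.

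The genes on either side of the CLCA cluster, added by their position after the data were seen, were well above background on all 6 arrays. Sh3glb1, which encodes an endophilin of the mitochondrial and autophagy machinery, had a log2 difference of -0.01 ± 0.09, and Odf2l, on the Clca2 side, of 0.05 ± 0.25 (SE; limma adjusted p = 0.972 and 0.961). Their groups overlapped. Of these genes only Odf2l lies directly beside Clca2, since Sh3glb1 lies beyond the other CLCA genes and Clca1 could not be read. Being read in all corn oil livers and no BBMP liver was seen for 30 of 28112 features (0.107%). Its absence at these genes is therefore a description, and a cause shared along the chromosome was not tested.

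**Figure D4:**
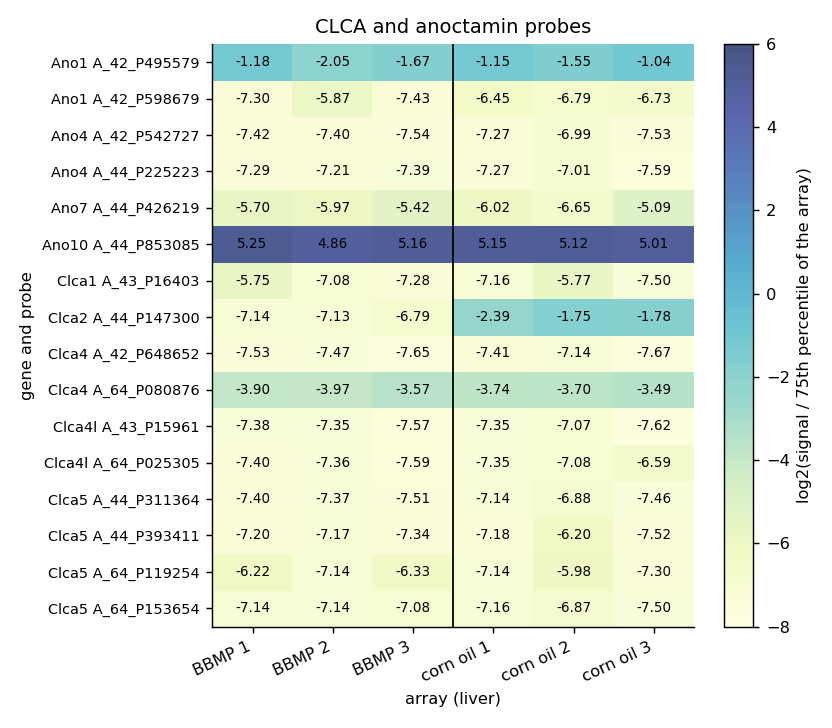
Scaled log2 signal of the 16 CLCA and anoctamin probes (rows) in each liver (columns, BBMP left of the line and corn oil right of it). Colour and printed value give log2 of the signal over the array's 75th percentile, to be read along a row, since probes differ in brightness. Of the 16 rows, Clca2 alone is well above background in all livers of one group and in none of the other.

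Ano1, the pore-forming calcium-activated chloride channel, was read in all livers by 1 of its 2 probes. That probe gave 232, 117 and 179 intensity units in BBMP livers and 203, 156 and 254 in corn oil livers. The groups overlapped, with the lowest reading in BBMP 2 and the highest in corn oil 3. The scaled log2 means were -1.63 ± 0.44 in BBMP livers and -1.25 ± 0.27 in corn oil livers (SD, n = 3 each), a difference of -0.39 ± 0.25 (SE; limma adjusted p = 0.596). The 95% interval of the fold, BBMP over corn oil, was 0.505 to 1.16. The difference was -0.62 without BBMP 1 and -0.18 without BBMP 2, and -0.18 with normexp. The other Ano1 probe was read on no array, at 3.30 to 8.30 intensity units.

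Ano10, an anoctamin of intracellular membranes that in humans is linked to a hereditary ataxia, was bright in every liver. Its probe gave 19932, 14162 and 20386 intensity units in BBMP livers and 15982, 15843 and 16841 in corn oil livers. The BBMP readings lay on both sides of the corn oil readings. The scaled log2 means were 5.09 ± 0.20 in BBMP livers and 5.09 ± 0.07 in corn oil livers (SD, n = 3 each), a difference of -0.002 ± 0.13 (SE; limma adjusted p = 0.996). The 95% interval of the fold, BBMP over corn oil, was 0.806 to 1.24, so changes of that size in either direction lie within it. Its direction turned under several settings, given below. Of the other anoctamins, both probes of Ano4 were read on no array, and the probe of Ano7 was well above background on 0 BBMP arrays and 1 corn oil array.

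Over all features, limma called 2 of 28112 at an adjusted p of 0.05 (0.00711%), and 10.8% had an unadjusted p under 0.05. The groups did not overlap for 17.8% of features, with higher values in BBMP livers for 8.25% and lower values for 9.58%. Of the 3 tested members other than Clca2, limma called 0, with 0 at an unadjusted p under 0.05, and the groups overlapped for all 3. The calls of the fit are not used for Clca2, which was chosen by this contrast.

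Chloride channels of other families lay on both sides of 0. Across bestrophins, CLC proteins with their partner subunits, LRRC8 proteins and further chloride channels, 31 of 34 listed genes were on the array and 22 were tested. Of these 12 were higher and 10 lower in BBMP livers, with a median log2 difference of 0.01 against -0.012 over all features tested. Limma called 0 of the 22 over all features, and 1 had an unadjusted p under 0.05. That gene was Cftr, the cAMP-regulated chloride channel of bile duct and other epithelia. It had scaled log2 signals of -3.86, -3.80 and -4.26 in BBMP livers and -3.48, -3.77 and -3.11 in corn oil livers. The groups did not overlap, and the difference was -0.52 ± 0.21 (SE; limma adjusted p = 0.456). The groups did not overlap, with lower values in BBMP livers, for 4 of the 22 genes (18.2%), against 9.58% of all features.

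The list of CLC proteins, which are chloride channels and chloride-proton exchangers, also held Ostm1, a partner subunit that is neither. Of its 8 tested genes 5 were higher and 3 lower, with Ostm1 counted as higher at a difference of 0.0. The endosomal exchanger Clcn3 differed by -0.52 ± 0.33 and Clcn5, also endosomal, by -0.18 ± 0.12, while the muscle channel Clcn1 had 0.32 ± 0.26 in log2 units (SE; limma adjusted p from 0.594 to 0.681). All 5 LRRC8 genes, which build the volume-regulated anion channel, were tested and differed by -0.09 to 0.12, with Lrrc8a, the obligatory subunit, at -0.09 ± 0.12 (limma adjusted p = 0.800). Of the remaining channels, Ttyh3 differed by -0.25 ± 0.11 and Clic5 by -0.30 ± 0.15, and Clic4, an intracellular CLIC protein, by 0.40 ± 0.23 (SE; limma adjusted p from 0.483 to 0.558). None of the named genes of these families passed the test.

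**Figure D5:**
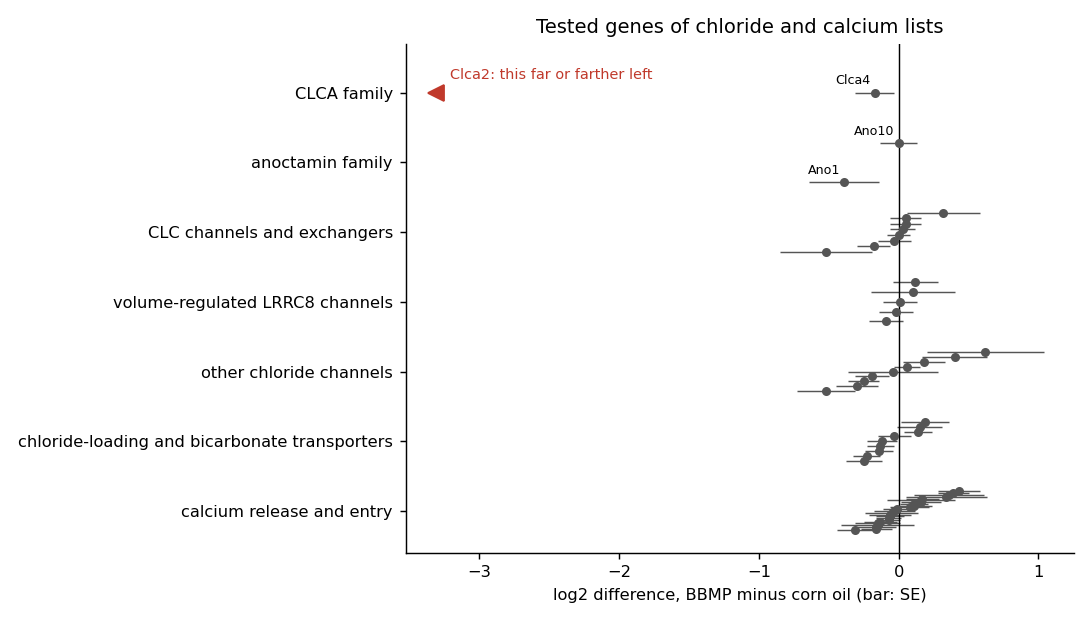
Log2 difference, BBMP minus corn oil (x axis), of each tested gene of the CLCA, anoctamin, other chloride channel, transporter and calcium lists (rows), with bars for the SE of the fit. Clca2 is drawn at its bound, a fall by at least 3.31, and the tested genes of the other families lie between -0.52 and 0.62.

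The transporters that load cells with chloride or exchange it for bicarbonate were tested for 9 of 10 genes, 3 higher and 6 lower, with a median of -0.12. Slc12a7, a potassium-chloride cotransporter, differed by -0.25 ± 0.13, Slc26a1, a sulfate and anion exchanger of hepatocytes, by -0.23 ± 0.10, and Slc12a2, the sodium-potassium-chloride cotransporter that feeds chloride secretion, by 0.14 ± 0.10 (SE; limma adjusted p from 0.481 to 0.633). Limma called 0 of the 9, and 0 had an unadjusted p under 0.05. Genes of calcium release and entry, which set the signal that opens these channels, were tested for 23 of 24, with 10 higher and 13 lower, a median of -0.03 and 0 called. Their smallest p belonged to Itpr2, the main calcium release channel of hepatocytes, at 0.32, 0.49 and 0.22 in BBMP livers and -0.02, -0.09 and -0.03 in corn oil livers. These groups did not overlap, and Itpr2 differed by 0.39 ± 0.11 (SE; limma adjusted p = 0.397). The groups did not overlap for 4 of the 23 genes and for 17.8% of all features. An unadjusted p under 0.05 was found for 2 of the 23 and for 10.8% of all features. Itpr3, the release channel of bile duct cells, differed by 0.43 ± 0.15 (adjusted p = 0.426), and the adrenergic receptor Adra1b by -0.31 ± 0.13 (adjusted p = 0.465).

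Human CLCA2 is a p53 target, and of 13 tested p53 target genes 3 were higher and 10 lower in BBMP livers, with a median of -0.12. Over all features tested, 52.5% were lower. Limma called 0 of the 13 over all features, and 2 had an unadjusted p under 0.05, as did 10.8% of all features. These were Phlda3 and the pro-apoptotic Bbc3. Phlda3, an inhibitor of Akt signalling, had scaled log2 signals of -0.82, -1.12 and -0.70 in BBMP livers and 0.07, 0.49 and -0.39 in corn oil livers. Its groups did not overlap, and it differed by -0.94 ± 0.24 (SE; limma adjusted p = 0.391), while Bbc3, whose groups overlapped, differed by -0.49 ± 0.17 (adjusted p = 0.426).

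All 10 hepatocyte markers were well above background, and summed over the list they stood at 6160 to 6920 times the array's 75th percentile in BBMP livers and 6820 to 7180 times in corn oil livers. Marker lists were also read for the cell types that could carry CLCA and anoctamin transcripts. Of 9 tested bile duct markers 5 were higher and 4 lower, the summed level was 25.4 to 57.0 in BBMP livers and 25.4 to 95.6 in corn oil livers, and Sctr, Slc5a1 and Mmp7 were read on no array. That sum was led by Onecut1, at a scaled log2 mean of 4.39 ± 1.12 in BBMP livers and 5.12 ± 1.43 in corn oil livers (SD, n = 3 each), and by Cdh1, both of which hepatocytes also express. Of 5 tested markers of squamous and basal epithelium 3 were higher, with a summed level of 2.94 to 3.03 in BBMP livers and 2.42 to 2.79 in corn oil livers, and the desmosomal cadherins Dsg3 and Dsc3 were read on no array. Most of that sum came from Tp63, at a scaled log2 mean of 1.24 in BBMP livers and 0.98 in corn oil livers. The 5 differed by -0.32 (Krt5), 0.41 (Krt14), 0.19 (Krt15), -0.23 (Krt1) and 0.26 (Tp63) on the log2 scale, and limma called 0 of them. Of 9 tested stellate cell and fibroblast markers 8 were lower, with a summed level of 38.4 to 44.6 in BBMP livers and 46.9 to 51.6 in corn oil livers. Lrat, the retinol-esterifying enzyme of stellate cells, differed by -0.48 ± 0.14, and the neurotrophin receptor Ngfr by -0.94 ± 0.21 (limma adjusted p = 0.405 and 0.376). Of the 9, limma called 0 over all features and 4 had an unadjusted p under 0.05, all lower, where 10.8% of all features had such a p and 52.5% were lower. The part of the stellate markers in the Clca2 result was not tested.

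The genes whose values were most like those of Clca2 were sought over 11110 named genes by Pearson's correlation of the scaled log2 signal over the 6 arrays. Because the Clca2 values form 2 separate groups, this measure finds genes that part the groups evenly, whatever the size of their difference. The 5 highest were Zfp668 (r = 0.995), Thpol1 (0.992), Fam193b (0.991), Tbc1d25 (0.988) and Adam4l1 (0.988), and 73 genes (0.657%) were over 0.95. Zfp668, a zinc finger protein, had -2.32, -2.28 and -2.31 in BBMP livers and -1.88, -1.84 and -1.80 in corn oil livers. The differences of Zfp668, Thpol1, Fam193b and Tbc1d25 were -0.46, -0.57, -0.12 and -0.32 on the log2 scale. Adam4l1 was, like Clca2, not well above background in any BBMP liver, and was at least 1.64-fold lower there. The likeness was what chose these genes, so no test is given.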

How the data were processed

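Per the labels' protocols, 0.2 µg of liver RNA was labelled with Cy3. Per the file headers, the array design was Agilent's 035170 with rn4 annotation, and version 10.7.1.1 of Feature Extraction read it (10.7 per the submitters' processing notes). Scanner files as deposited give a linear intensity per spot, background-subtracted and detrended but not normalised between arrays. A value table from the authors holds linear intensity too, equal to the processed signal over 1 constant per array, with column medians of 0.0965 to 0.0998; the purpose of that step is not given in the sources used here.

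Controls and 84 spike-in probes were left out, leaving 61573 probes. Unversioned accessions were matched to the RefSeq gene table (GRCr8), which named 27460 probes (44.6%) and 15284 genes. The 75th percentile of an array was 450.1 to 570.5 units, and 60.1% to 64.4% of probes were well above background. The main component, 32.9% of the variance, separated BBMP and corn oil arrays, and corn oil 2 lay farthest from the rest. Arrays correlated at 0.986 to 0.992, and none was a duplicate.

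The log2 signal over the 75th percentile was fitted in limma 3.58.1 (R 4.3.3; lmFit and eBayes without covariates), and two-sided p-values were adjusted by Benjamini-Hochberg across 28112 features, each gene by its brightest probe; scanner outlier spots were left out. Python 3.11.15 made the tables. A bound sets each array of the dim group at its lowest signal well above background, or at the probe's own signal if higher. The number of arrays limits the precision. The labels name separate animals.

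The members and lists were chosen with earlier results of these data known. Named genes were all 6 members, up to 4 tested genes with the smallest p of each chloride, calcium or p53 list, up to 2 with the smallest p and 2 with the highest level of each marker list, and the 5 most like Clca2. Alternatives were normexp, quantile and median scaling, the authors' value table, other filters, every probe, a variance trend with robust moderation, the replicate block and leaving out each array. Normexp used the median spot signal. Results for some listed genes are not reported here.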

Additional observations from a re-analysis of the deposited data

How the results depend on the processing

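The bound of Clca2 was 9.91-fold and became 2.83-fold with normexp, which adds 50 intensity units by construction; without 1 array it ranged from 9.18 to 11.5, and it was 9.95 with quantile normalisation, 9.80 with median scaling and 9.92 with the authors' value table, the other settings in which a bound was computed. The authors' value table carries nearly the scaling of the main fit, so its closeness to the main results was built in. The measured difference of Clca2 was -1.56 with normexp. The number of features past adjusted p 0.05 was 2 and went to 0 with normexp, to 1 without a filter, to 0 with the filter on all 6 arrays and to 0 with the replicate block, with 3246, 3304, 2832 and 3235 features at an unadjusted p under 0.05; without 1 array it was 0 (without corn oil 3) to 4 (without BBMP 3 or corn oil 2). The filter on all 6 arrays removes both called features by construction, since both were well above background on 0 BBMP arrays; the cause of the other changes was not tested. No label says that a shared replicate number marks a pair, and the deviations of animals 1, 2 and 3 from their group means correlated across groups at 0.089, 0.016 and 0.072. Of the members other than Clca2, limma called 0 in all settings, with Ano1 at an unadjusted p under 0.05 without BBMP 1. Ano10, at -0.002, turned to 0.072 with normexp and 0.014 with median scaling, and ranged from -0.081 to 0.111 without 1 array. Clca4 and Ano1 kept their sign in all settings run, including -0.29 to -0.09 and -0.62 to -0.18 without 1 array. Clca2 has a single probe, so no second probe could be read, and signal over background limits Clca1 to no level and Clca2 to a bound.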

Other observations

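The 5 tested markers of pancreatic acinar cells were read in all 6 livers. Of the 5, 4 were higher in BBMP livers, and the summed level was 0.806 to 1.16 times the array's 75th percentile in BBMP livers and 0.602 to 0.713 in corn oil livers, while Prss1, Cela1, Pnlip and Clps were read on no array. The carboxypeptidase Cpb1 had scaled log2 signals of -2.56, -2.56 and -0.89 in BBMP livers and -2.65, -3.64 and -4.39 in corn oil livers, so 1 BBMP liver stood well over the others and the corn oil livers were themselves spread. It differed by 1.56 ± 0.60 (SE; limma adjusted p = 0.447). The chymotrypsinogen Ctrb1 differed by 0.24 ± 0.09 (adjusted p = 0.441). Of 6 tested secretory and intestinal epithelial markers 2 were higher and 4 lower, with a median of -0.16, and limma called 0. An unadjusted p under 0.05 was found for 2 of the 6, and for 10.8% of all features. These were Cdh17, a cadherin, at -1.04 ± 0.41 and the trefoil peptide Tff1 at 0.67 ± 0.26 (SE; limma adjusted p = 0.455 and 0.454). Cdh17 had scaled log2 signals of 1.42, 3.12 and 2.38 in BBMP livers and 3.57, 3.31 and 3.15 in corn oil livers. The BBMP readings were thus widely spread, and BBMP 2 lay close to corn oil 3. Which cells of these livers gave the Cdh17 signal was not tested. Of 11 macrophage and Kupffer cell markers 11 were higher, where 52.5% of all features were lower. Their summed levels were 128 to 183 in BBMP livers and 106 to 170 in corn oil livers. The groups did not part for any of the 11, and parted for 17.8% of all features. In all 11 the lowest BBMP reading was in BBMP 2 and the highest corn oil reading in corn oil 3. The 11 moved together by animal and are not separate observations.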
